A study of Mus musculus with 14 samples.

Results

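The regions described here are ESC enhancers that carried no peak of either enhancer mark once the cells had differentiated. They are the peaks of the H3K4me1 list of mouse ESCs that overlapped, by 1 bp or more, no peak of the H3K4me1 list and no peak of the H3K27ac list of cells treated with retinoic acid (RA). Of 145840 ESC H3K4me1 peaks, 59023 (40.5%) met this rule and are called lost. The other peaks are called kept. Among the lost peaks, 17518 overlapped an H3K27ac peak in ESCs and 41505 did not. The first were 24.5% of the ESC H3K4me1 peaks with H3K27ac, and the second were 55.8% of those without it. The number with H3K27ac depends on the definition. It was 30114 when RA peaks had to cover 50% of a peak to keep it, 29903 when only RA peaks above the median score counted, and 10198 among ESC peaks above the median score.

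An enhancer is a stretch of regulatory DNA that acts on a gene at a distance. H3K4me1, a single methyl group on lysine 4 of histone H3, marks both active and waiting (primed) enhancers, while acetylation of lysine 27 of the same histone (H3K27ac) is added where an enhancer is active. When a cell leaves pluripotency, many enhancers of the pluripotent state are switched off, and the marks are removed and the DNA can gain 5-methylcytosine (5mC), the repressive methylation of CpG sites. An ESC enhancer with both marks is therefore commonly read as active, and one with H3K4me1 alone as primed.

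The data were ChIP-BS-seq libraries, in which DNA bound by a histone mark is pulled down with an antibody and then treated with bisulfite. 5mC is thus read in the DNA that was pulled down, which can include background DNA without the mark. ESCs were of the R1 line, after 2 days in medium without 2i, the inhibitors of MEK and GSK3 that keep DNA methylation low. The differentiated cells were the same line after 4 days with 1 µM RA, a treatment that, per the study, gives cells of varied fates. XEN cells, which resemble extraembryonic endoderm, came from the same line after 9 days with 0.1 µM RA and Activin A. All cells were thus descendants of 1 cell line, at the same range of passages. There was 1 library per mark in ESCs and in differentiated cells, and although the study describes repeats, whether such a library pools them is not given in the sources used here, so ESC and RA values have no replicate error. XEN cells had 2 libraries per mark.

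The 4 ESC and RA libraries held between 32305709 and 58803653 CpG counts, and the 4 XEN libraries between 12147115 and 31345707. XEN files list only 200-bp bins with at least 4 counts, so a region without such a bin was at 0 there, and this depends on depth. Levels are CpG counts scaled to the library total (CPM), and 5mC is methylated over all CpG counts. Intervals on percentages are exact 95% binomial intervals. They account for counting error alone, because CpGs on 1 read and PCR copies of it are not independent. The names of the deposited XEN files give the other mark than the sample labels do. The sample labels were used here, so an XEN library is always given by its labelled mark. Over all bins, XEN libraries labelled H3K27ac had 61.5% 5mC in both replicates and those labelled H3K4me1 47.9% and 49.2%, whereas the H3K4me1 library was the more methylated in ESCs (38.6% against 33.0%) and after RA (54.8% against 38.7%). Over the kept peaks with ESC H3K27ac, the libraries labelled H3K4me1 in XEN cells had fewer counts at the peak centre than 1000 bp away, as the H3K27ac libraries of ESCs and differentiated cells did, and those labelled H3K27ac peaked at the centre, as the H3K4me1 libraries did. With the marks read by file name, every XEN comparison of marks below changes its direction and no XEN level or 5mC value changes. No genes are named, because no annotation of the files' build (mm9) was used, and peaks near transcription start sites stayed in, so that some regions may be promoters.

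Lost enhancers had lower median scores than kept peaks of the same acetylation class. The median HOMER score, a measure of how strongly a peak stands out that is used here only to rank peaks of 1 list, was 26.8 for lost enhancers with ESC H3K27ac and 56.2 for kept ones with it. Without ESC H3K27ac the medians were 12.2 for lost and 16.3 for kept peaks. Lost enhancers were also narrower, with a median width of 1261 bp without ESC H3K27ac against 1541 bp for kept ones. The rule keeps a peak on an overlap of 1 bp, so a wider peak is kept more easily. How much of the differences in width and score follows from this was not tested. Together they covered 108.6 Mb of the 470.8 Mb of all ESC H3K4me1 peaks. When the list was cut into deciles by score, 63.0% of the peaks in the lowest decile were lost, and 4.88% in the highest. The fall was present in peaks with ESC H3K27ac, from 46.1% to 4.78%, and in peaks without it, from 66.2% to 13.5%. In each of the 10 deciles a smaller share of the peaks with ESC H3K27ac was lost than of those without it. A strong ESC peak without acetylation was rare, however, and only 24 such lost enhancers lay in the highest decile.

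**Figure D1:**
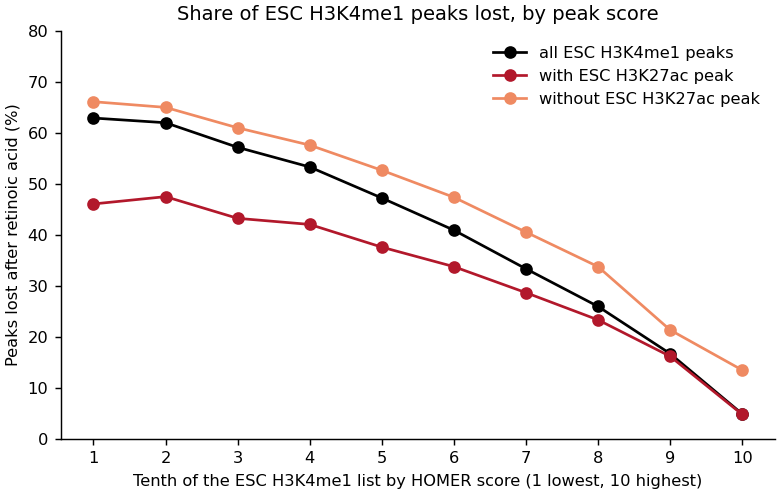
Share of ESC H3K4me1 peaks that were lost after RA (y axis, percent) in each decile of the list by HOMER score (x axis), for all peaks and for those with and without an ESC H3K27ac peak. All 3 lines fall toward the strong peaks, and the line of peaks with H3K27ac stays below the line of peaks without it.

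The 5mC that the region carried in ESCs also differed between lost and kept peaks. Among peaks with at least 30 counts in the ESC H3K4me1 library, 15.2% of the 10827 with under 20% 5mC (unmethylated regions, UMRs) were lost, 35.8% of those with 20 to 50%, and 48.01% of those with 50% or more. UMRs were lost least often in 10 of 10 score deciles, for example 2.29% against 9.37% of the most methylated peaks in the highest decile and 53.4% against 60.8% in the lowest. The order of the other classes was not the same at equal score. In the lowest decile 64.02% of the peaks with 20 to 50% 5mC were lost, more than of those with 50% or more. With ESC H3K27ac, 6.47% of UMRs were lost, and without it 34.6%. Lost enhancers were therefore seldom UMRs in ESCs, 3.01% of those with and 3.25% of those without ESC H3K27ac, against 13.2% and 7.21% of kept peaks.

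Lost enhancers were more often followed by another lost one than kept peaks were. The median gap to the nearest RA peak of either mark was 4053 bp, and 16.6% of the lost enhancers had an RA peak within 1000 bp. Where the next ESC peak along the chromosome was less than 100000 bp away, it was lost in 54.9% of cases after a lost enhancer and in 29.8% after a kept one. Within 5000 bp the shares were 53.01% and 24.8%, and from 20000 to 100000 bp they were 60.4% and 47.6%, so the difference was smaller at longer range. Leaving out chromosome Y, with 22 peaks, the lost share ran from 34.2% on chromosome 19 to 44.0% on chromosome 5 and 46.0% on X. The median score on X was 18.0, against 22.3 over all peaks, and at equal weights for the score deciles X had 42.0%.

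The 1-Mb windows with the most lost enhancers were 2 on chromosome 5 and 1 on chromosome 4, against a median of 21 per window over 2547 windows. In chr5:129000001-130000000, 102 of 124 ESC peaks were lost, and 19 of the 102 had ESC H3K27ac. In chr4:140000001-141000000 it was 102 of 148, and in chr5:114000001-115000000 it was 84 of 144. The lost enhancers of the first window summed to 365.5 CPM in the ESC H3K4me1 library and to 74.5 CPM after RA. In XEN cells they summed to 32.8 and 39.5 CPM in the libraries labelled H3K4me1 and to at most 27.1 CPM in those labelled H3K27ac. Their pooled H3K4me1 5mC was 39.0% in ESCs and 54.1% after RA, and it was 65.2% and 61.3% in the XEN libraries labelled H3K4me1. In all 3 windows H3K4me1 5mC was lowest in ESCs and highest in the XEN libraries labelled H3K4me1. The H3K4me1 level was highest in ESCs in each. In the third window, however, it was 78.4 CPM after RA and 85.5 and 87.4 CPM in the XEN libraries labelled H3K4me1. The order of those states was thus not the same throughout.

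The rule fixes that lost enhancers had little of either mark after RA, so the ESC and RA levels are a description. With ESC H3K27ac the mean H3K4me1 level was 3.54 CPM in ESCs and 0.650 CPM after RA, and the mean H3K27ac level was 2.33 and 0.693 CPM. Without it H3K4me1 went from 1.90 to 0.517 CPM, and H3K27ac, which had no peak there in either state, from 0.688 to 0.432 CPM. The log2 ratio of CPM + 1 in H3K4me1, RA over ESC, was under -1 in 63.6% and 39.6% of the lost enhancers, where 28.4% of all peaks passed. Per kilobase, the RA H3K4me1 library held 0.302 CPM over lost enhancers and 0.0700 CPM outside all peaks of the 4 lists. CpG counts also rise with the density of CpGs, which was not matched here, so whether the mark remained was not tested. A lower CPM can come from fewer cells that carry the mark or from less of it in each cell, and these cannot be told apart. The rule is sharp where the data are not. There were 1707 lost enhancers with an RA peak less than 200 bp away and 1537 kept peaks that overlapped RA peaks by less than 200 bp. Their median RA H3K4me1 levels were 0.466 and 0.530 CPM and their median RA 5mC 66.1% and 67.3%. The lost enhancer with the smallest gap, chr1:61410597-61412353, had 93 H3K4me1 counts in ESCs and 36 after RA. The kept peak with the smallest overlap, chr1:140975202-140976488, had 91 and 16.

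Around the centres of lost enhancers, the ESC H3K4me1 library had a single peak of counts, with 0.352 CPM per bin at the centre and 0.148 CPM 1000 bp to either side where ESC H3K27ac was present. The same central bins held 0.0545 CPM in the RA H3K4me1 library and 0.0655 and 0.0708 CPM in the XEN libraries labelled H3K4me1. 5mC was lowest at the centre in ESCs, at 36.2% against 46.0% on the left at 1000 bp, and this dip had become shallow after RA, at 54.3% against 57.8%. In the XEN libraries labelled H3K4me1 there was none, with 71.5% and 70.8% at the centre against 69.2% and 68.3%. Lost enhancers without ESC H3K27ac also had their lowest H3K4me1 5mC at the centre in ESCs (39.7% against 50.9%) and after RA (52.8% against 61.4%). They had no dip in those XEN libraries (69.2% and 68.6% against 68.5% and 67.3%). By file name the XEN libraries labelled H3K4me1 hold H3K27ac, so whether the H3K4me1 dip was gone in XEN cells cannot be told.

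**Figure D2:**
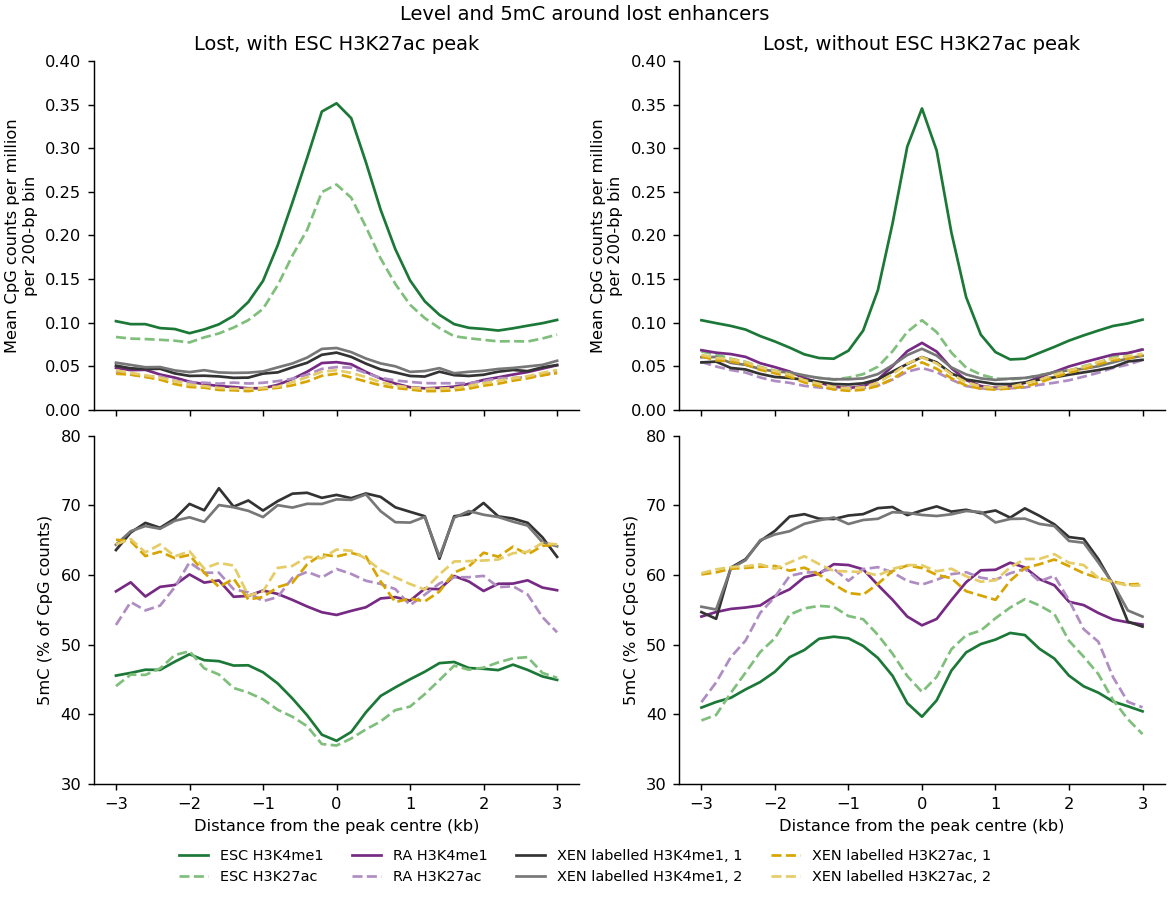
Mean CPM per 200-bp bin (upper panels) and 5mC in percent of CpG counts (lower panels) against distance from the centre of lost enhancers (x axis, kb), with and without an ESC H3K27ac peak, in 8 libraries. Only bins with at least 4 counts entered. The central peak of counts stands out in the ESC libraries, and the central dip of 5mC of ESC H3K4me1 (36.2% and 39.7%) is absent in the XEN libraries labelled H3K4me1. By file name those XEN libraries hold H3K27ac.

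In the H3K4me1 libraries, DNA of lost enhancers, which can include background DNA without the mark, was more methylated after RA than in ESCs. With at least 30 counts needed in both libraries, this could be followed in 6165 of the 17518 lost enhancers with ESC H3K27ac and in 11489 of the 41505 without it. Strong ESC peaks passed more often, with 596 of 688 lost enhancers with ESC H3K27ac in the highest score decile and 79 of 1074 in the lowest. With ESC H3K27ac, the median 5mC was 42.0% in ESCs and 61.5% after RA, and the median change was 18.1 percentage points (quartiles 10.1 and 26.0). Without it, the medians were 45.2% and 60.5% and the median change 14.3 points. Over all 95012 ESC H3K4me1 peaks that passed, the median change was 14.7 points. It was 15.5 points for kept peaks with ESC H3K27ac and 12.4 points for kept peaks without it. 5mC was over 20 points higher after RA in 2680 (43.5%) of the lost enhancers with ESC H3K27ac and in 3645 (31.7%) of those without it, where 32.0% of all peaks tested passed. It was over 20 points lower in 8 and 34 of them, where 0.607% of all peaks passed. In the H3K27ac libraries, 5mC of lost enhancers with ESC H3K27ac had medians of 46.0% and 63.8%, and 1848 of 4388 (42.1%) were over 20 points higher after RA, where 25.1% of all peaks passed. Without ESC H3K27ac it was 865 of 3281 (26.4%), near the share of all peaks, with medians of 52.4% and 64.9%. With single libraries, none of these differences can be set against a spread between replicates.

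The change differed with the 5mC at the start. Lost enhancers with ESC H3K27ac and 20 to 50% 5mC in ESCs had a median change of 20.5 points (n = 4217), against 13.8 points from under 20% (n = 285) and 13.0 points from 50% or more (n = 1663). Without ESC H3K27ac the medians were 16.7, 9.81 and 11.8 points. It was also larger at stronger ESC peaks. From the lowest to the highest score decile, the median change went from 9.65 to 23.1 points with ESC H3K27ac and from 10.3 to 19.2 points without it. Set against kept peaks of the same score decile, the median change of lost enhancers was larger in 8 of 10 deciles with ESC H3K27ac, by a median of 3.07 points, and in 10 of 10 without it, by 1.84 points. Among UMRs without ESC H3K27ac the lost enhancers changed more than kept ones in only 2 of 8 deciles with 20 peaks of each kind.

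**Figure D3:**
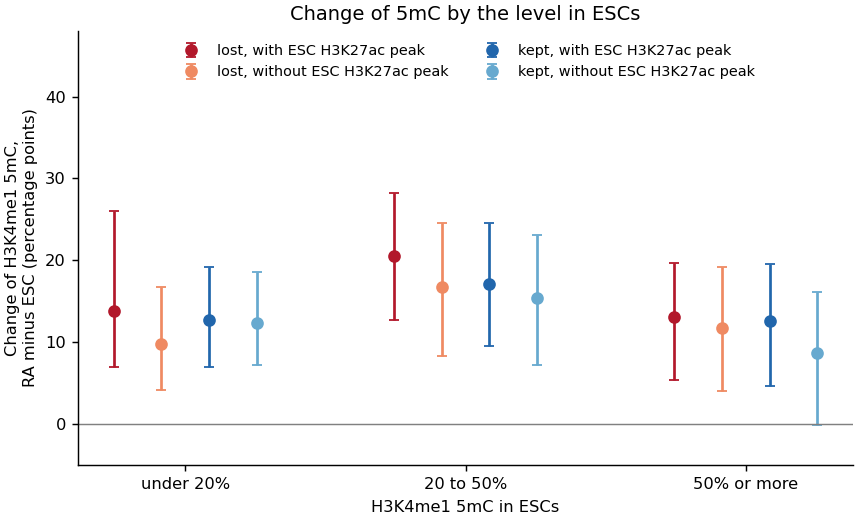
Change of H3K4me1 5mC from ESCs to differentiated cells (y axis, percentage points) for lost and kept ESC H3K4me1 peaks, grouped by 5mC in ESCs (x axis). Points are medians over peaks with at least 30 counts in both libraries and bars reach from the lower to the upper quartile. All medians lie above 0, with the highest, 20.5 points, at lost enhancers with H3K27ac and 20 to 50% 5mC.

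The UMRs among lost enhancers took different paths. Of 285 UMRs with ESC H3K27ac that had 30 counts after RA, 27.7% (22.6 to 33.3%) stayed under 20% 5mC and 47.0% (41.1 to 53.0%) exceeded 30%, the range of low-methylated regions (LMRs). Of 775 UMRs without ESC H3K27ac, 39.2% (35.8 to 42.8%) stayed unmethylated and 28.5% (25.4 to 31.8%) exceeded 30%. Over all 10182 UMRs followed, 27.2% stayed under 20% and 37.8% exceeded 30%. For kept peaks the shares were 25.8% and 39.3% with ESC H3K27ac, and 27.1% and 35.0% without it. Regions without a peak of either mark after RA thus included some whose pulled-down DNA stayed under 20% 5mC. In XEN cells, pooled 5mC of these UMRs was 46.3% and 45.8% with ESC H3K27ac and 35.5% in both replicates without it in the libraries labelled H3K4me1. In those labelled H3K27ac it was 27.7% and 29.4%, and 25.0% and 26.3%.

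Single regions show the range. The lost enhancers with ESC H3K27ac and the most counts in ESCs were broad. The first, chr4:126861245-126882279, spanned 21034 bp and had 61.5 CPM of H3K4me1 and 39.7 CPM of H3K27ac in ESCs, and 4.92 and 3.44 CPM after RA. In XEN cells it had 1.81 and 1.91 CPM in the libraries labelled H3K4me1 and 1.19 and 1.69 CPM in those labelled H3K27ac. All 6 libraries of differentiated and XEN cells were thus far below both ESC libraries. Its H3K4me1 5mC was 29.3% (27.8 to 30.8%) in ESCs and 59.9% (53.3 to 66.3%) after RA, and 50.0% and 70.0% in the XEN libraries labelled H3K4me1, on 22 and 30 counts. In those labelled H3K27ac it was 81.5% and 75.5%, on 27 and 53 counts. The next, chr7:38248233-38266291, went from 57.4 CPM and 35.6% 5mC in ESCs to 8.37 CPM and 58.2% after RA, with 56.7 to 70.1% in the XEN libraries. The third, chr2:179252101-179270867, went from 56.1 CPM and 30.04% to 5.13 CPM and 50.0%. The fourth, chr1:120966812-120984897, had more H3K27ac than H3K4me1 in ESCs (64.7 against 54.2 CPM) with 13.7% and 25.8% 5mC, and 3.93 and 5.91 CPM with 53.5% and 46.6% after RA. In XEN cells it had no listed bin in replicate 1 labelled H3K4me1, and 1.19 to 2.74 CPM in the other libraries. The fifth, chr13:43353109-43372823, had the highest XEN levels of the 5, with 52.1 CPM in ESCs, 7.78 CPM after RA and 8.03 to 14.9 CPM in the XEN libraries, and its 5mC went from 41.8% to 57.8% and to 65.9 to 71.6%.

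Among those without ESC H3K27ac, chr15:76001945-76021758 had the most counts of all lost enhancers. It had 94.9 CPM of H3K4me1 in ESCs and 12.7 CPM after RA, with 33.4% (32.2 to 34.7%) and 57.1% (53.0 to 61.1%) 5mC. In XEN cells it held 54.5 and 50.3 CPM in the libraries labelled H3K4me1 and 19.0 and 18.9 CPM in those labelled H3K27ac, and 5mC was 86.6% and 84.3% in the first pair and 76.9% and 79.1% in the second. It had the highest level in XEN cells of all lost enhancers, and RA peaks lay 828 bp (H3K4me1) and 422 bp (H3K27ac) away. The other 4 were little methylated in ESCs. chr7:57162307-57173443 went from 49.0 CPM and 19.0% 5mC to 9.11 CPM and 32.8%, and chr4:129641469-129651389 from 32.1 CPM and 20.6% to 6.70 CPM and 57.9%. In contrast, chr2:180507267-180517000 had 15.6% (14.0 to 17.4%) in ESCs and 16.8% (12.9 to 21.2%) after RA, while its level was 30.9 and 7.08 CPM. Its intervals overlap, so no change of 5mC was detectable at this depth. chr5:38664557-38670665 had 14.3% and 22.0% at 27.7 and 4.92 CPM.

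Among lost enhancers with at least 100 counts in both H3K4me1 libraries, 836 of 881 with ESC H3K27ac and 972 of 1068 without it had a higher 5mC after RA, where 89.1% of all peaks with at least 30 counts did. The changes ran from -15.1 to 45.8 points in the first group and from -12.5 to 44.9 points in the second. The 3 largest changes upward with ESC H3K27ac were at chr3:95662567-95672035 (23.2% to 68.9%), chr7:134956890-134961475 (32.7% to 78.3%) and chr2:166263109-166267140 (18.2% to 63.2%). The H3K27ac library moved the same way at the first, from 20.0% to 65.6%, and in XEN cells that region had 80.2% and 87.1% in the libraries labelled H3K4me1 and 62.2% and 77.1% in those labelled H3K27ac. Without ESC H3K27ac, the 3 largest were chr3:116049747-116051516 (28.2% to 73.0%), chr15:83308111-83313627 (29.1% to 73.8%) and chr2:166119954-166123043 (31.8% to 75.7%). A few regions had less 5mC after RA. The largest changes downward with ESC H3K27ac were at chr11:5960421-5965224 (38.7% to 23.6%), chr5:27142846-27145680 (24.7% to 11.02%) and chr8:89997112-90000305 (21.4% to 9.49%), and without it at chr13:54865824-54868758 (23.1% to 10.6%), chr17:25953496-25957572 (30.9% to 19.8%) and chr10:12736065-12740898 (41.5% to 31.8%). In the ESC H3K27ac library the first 5 of these 6 had 3.60 to 23.3% 5mC, below their ESC H3K4me1 value.

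XEN cells did not enter the rule. Lost enhancers had low levels of both marks there as well. With ESC H3K27ac, lost enhancers had a mean of 0.674 and 0.755 CPM in the libraries labelled H3K4me1 and 0.410 and 0.462 CPM in those labelled H3K27ac, against 3.72 CPM in ESC H3K4me1 on the same bins of at least 4 counts. Without ESC H3K27ac the XEN means were 0.394 and 0.458 and then 0.337 and 0.379 CPM, against 1.98 CPM in ESCs. The median log2 ratio of CPM + 1, XEN libraries labelled H3K4me1 over ESC H3K4me1, was -1.14 and -0.86, a scale that understates the change of weak peaks. It was -0.54 for kept peaks with ESC H3K27ac and -0.51 for kept ones without it. The size rests on the scaling. Scaled to counts outside all peak lists, the medians were -2.93 and -2.69 for lost and -1.43 and -1.65 for kept peaks, and with a pseudocount of 0.1 they were -2.38 and -2.20 against -0.71 and -1.01. The ratio was under -1 in 56.2% of lost enhancers with and in 40.8% of those without ESC H3K27ac, where 38.1% of all 145840 peaks passed. With the libraries labelled H3K27ac over ESC H3K4me1 it was under -1 in 66.9% and 47.2%, where 36.2% of all peaks passed. Over ESC H3K27ac, the mark of that label, it was under -1 in 52.2% and 7.22%, where 19.3% of all peaks passed, and lost enhancers without ESC H3K27ac had little H3K27ac in ESCs to begin with. In each of the 10 score deciles the median ratio of lost enhancers lay below that of kept peaks, for either label. Since ESC counts are in each ratio and also led to the peak list, these shares describe the sets and carry no test.

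**Figure D4:**
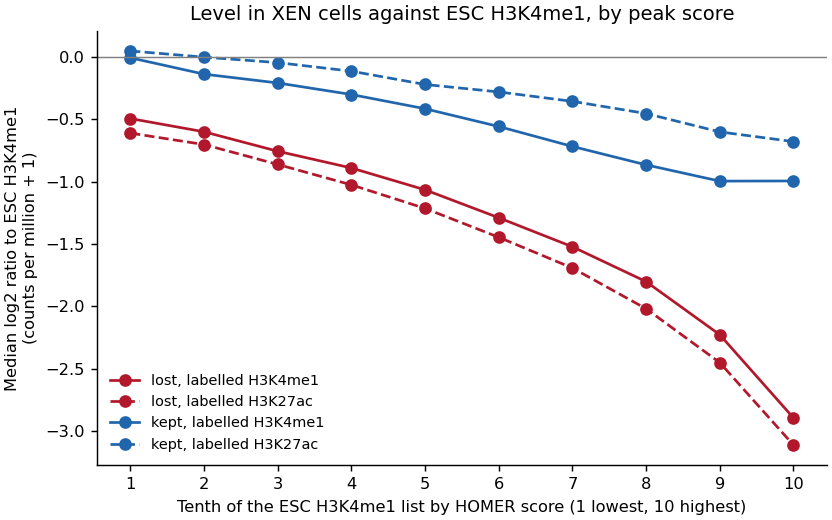
Median log2 ratio of CPM + 1 in XEN cells over ESC H3K4me1 (y axis) in each decile of the ESC H3K4me1 list by HOMER score (x axis), for lost and kept peaks and for XEN libraries of either label. The lines of lost enhancers run below those of kept peaks in all 10 deciles, from -0.49 in the lowest to -2.89 in the highest with the label H3K4me1.

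Of the lost enhancers, 11845 (20.1%) had no bin with at least 4 counts in any XEN library, 17.1% of those with and 21.3% of those without ESC H3K27ac. For kept peaks it was 0.735% with and 2.32% without it. Lost enhancers were narrower and had lower median scores, and the shares in this paragraph were not matched for either. Only 727 lost enhancers (1.23%) had a level at or above that of ESC H3K4me1 in XEN libraries of both labels, against 19.7% and 22.8% of the kept peaks. The highest XEN levels with ESC H3K27ac were at chr12:3109983-3111486, with 33.9, 32.4, 22.7 and 22.8 CPM against 3.38 CPM in ESC H3K4me1, at chr13:43353109-43372823 above, and at chr8:23672581-23681106, with 17.7 and 18.9 CPM in the libraries labelled H3K4me1 and 1.93 and 4.50 CPM in those labelled H3K27ac. Without ESC H3K27ac they were at chr15:76001945-76021758 above, at chr15:100559283-100564057, with 3.54 and 4.20 CPM and then 24.6 and 20.8 CPM, and at chr17:35162097-35169705, with 7.24 and 4.97 CPM and then 18.9 and 13.2 CPM. The first of these is the only one of the 6 whose level exceeded that of ESC H3K4me1 in all 4 XEN libraries. Whether its reads come from repeats was not tested.

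In XEN cells, pooled 5mC of lost enhancers was above that of ESCs in both marks, and above RA for the label H3K4me1 but near RA for the label H3K27ac. Pooled over the lost enhancers with ESC H3K27ac, 5mC was 71.0% and 70.1% in the libraries labelled H3K4me1 and 61.9% and 62.7% in those labelled H3K27ac. On the same kind of bins it was 41.2% in ESC H3K4me1 and 56.4% in RA H3K4me1. Without ESC H3K27ac, the XEN values were 69.6% and 68.8%, and 59.7% and 60.7%, against 44.1% and 55.5%. The H3K27ac libraries had 38.4% in ESCs and 60.6% after RA with ESC H3K27ac, and 47.6% and 60.04% without it. In the libraries labelled H3K4me1, kept peaks had lower values, 46.2% and 47.3% with ESC H3K27ac and 58.5% and 59.2% without it. In those labelled H3K27ac, all 4 sets lay within 59.7 to 62.7%. Outside all peak lists, 5mC was 64.6 to 67.3% in the XEN libraries, so lost enhancers lay above that level with the label H3K4me1 and below it with the label H3K27ac.

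**Figure D5:**
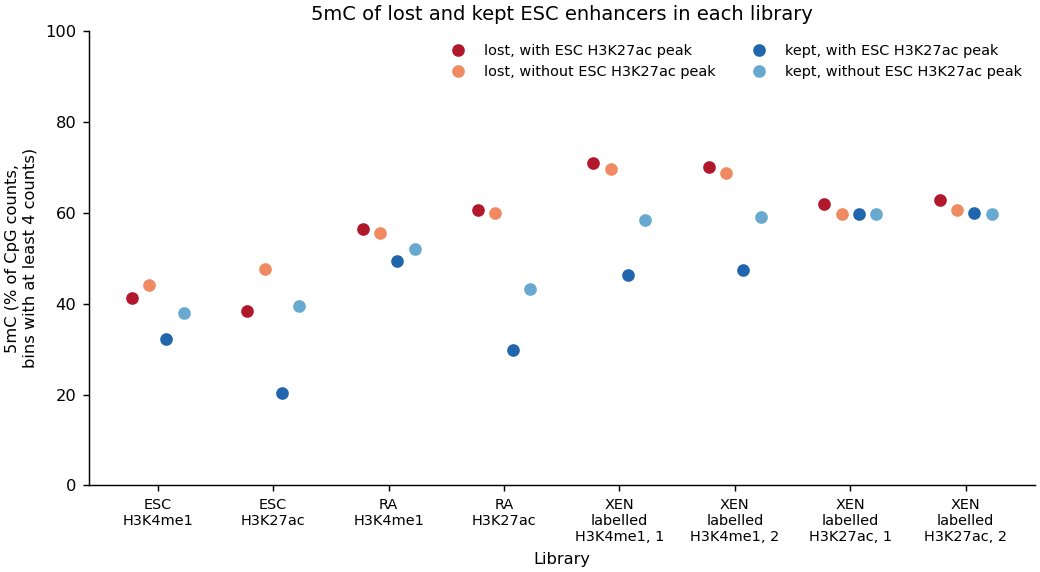
5mC in percent of CpG counts (y axis) pooled over lost and kept ESC H3K4me1 peaks, with and without an ESC H3K27ac peak, in each of 8 libraries (x axis). Points are pooled values from bins with at least 4 counts. Lost enhancers reach 68.8 to 71.0% in the XEN libraries labelled H3K4me1, above the kept peaks, and all 4 sets lie together in those labelled H3K27ac.

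Pooled values weight regions by their counts, and the XEN libraries did not cover the same regions. In the lost enhancers with at least 20 counts in each of 6 libraries (ESC and RA H3K4me1 and the 4 XEN libraries), 637 with ESC H3K27ac and 561 without it, the medians of the labels were close. With ESC H3K27ac, the median 5mC was 43.1% in ESCs, 65.6% after RA and 72.5, 72.6, 72.5 and 72.2% in the 4 XEN libraries. Without it, the medians were 48.9%, 67.9% and 75.9, 73.9, 75.0 and 74.0%. Kept peaks chosen in the same way still differed between the labels, with 54.4% and 55.6% against 60.9% and 60.8% with ESC H3K27ac. These lost enhancers are the few with enough counts in all 6 libraries, and they are no sample of the whole set. Few lost enhancers had 30 counts both in ESC H3K4me1 and in an XEN library. With ESC H3K27ac it was 1030 and 1861 of 17518 for the label H3K4me1 and 1485 and 2459 for the label H3K27ac. Without it, it was 875 and 1829 of 41505, and 2726 and 4655. Region by region, 5mC was over 20 points above ESC H3K4me1 in 76.1% and 70.5% of those with ESC H3K27ac for the label H3K4me1. It was so in 61.2% and 59.7% for the other label, where 45.3%, 47.7%, 54.8% and 54.2% of all peaks passed in the 4 libraries. Without ESC H3K27ac the shares were 69.1% and 61.9% with the label H3K4me1, and 48.2% and 46.9% with the label H3K27ac, below the share of all peaks. Kept peaks with ESC H3K27ac reached 59.8% and 59.9% with the label H3K27ac, close to the lost ones.

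The 2 marks could also be compared within a cell state. In regions with at least 30 counts in both libraries, 5mC of lost enhancers was close between the marks. With ESC H3K27ac the median difference, H3K4me1 minus H3K27ac, was -0.220 points in ESCs (n = 12631) and 1.58 points after RA (n = 3364). Without it the medians were -2.76 points (n = 10189) and 2.67 points (n = 2973). After RA, H3K4me1 was over 20 points higher in 5.80% of the lost enhancers with ESC H3K27ac and in 7.90% of those without it, where 15.5% of all peaks passed. In ESCs it was so in 2.30% and 1.58%, where 4.44% of all peaks passed. H3K27ac was over 20 points higher in 2.75% and 6.13% in ESCs, where 2.63% of all peaks passed, and in 2.82% and 3.53% after RA, where 1.06% passed.

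The comparison of the marks in XEN cells is the only one with replicates. Over all lost enhancers, pooled 5mC was 69.7% ± 0.599 (SD, n = 2) with the label H3K4me1 and 60.9% ± 0.695 (SD, n = 2) with the label H3K27ac. The difference of 8.84 points had the same sign in each pair of libraries, and the exact two-sided permutation test gave p = 0.333, the smallest that 2 against 2 libraries allow. On bins with at least 10 counts the difference was 19.3 points, so its size depended on the bins used. Per region, 1243 lost enhancers had at least 20 counts in all 4 libraries. By edgeR's quasi-likelihood F-test on methylated and unmethylated counts, with adjustment over all 42838 peaks tested, 5mC differed between the labels in 33 of them (2.65%), where 30.6% of all peaks tested passed. It was higher with the label H3K4me1 in 23, by a median of 24.2 points, and lower in 10, with a median difference of -25.0 points, where 1.64% and 28.9% of all peaks tested passed. Within the 1243, replicates of a label differed by a median of 8.74 points (H3K4me1) and 6.80 points (H3K27ac), and the labels by 8.63 and 7.47 points within replicates 1 and 2. The mean level of lost enhancers with ESC H3K27ac was 0.674 CPM in replicate 1 labelled H3K4me1, against 8.94 CPM for kept ones, and the part of this in the share called was not tested. The split into higher and lower was not stable: without replicate 1 labelled H3K4me1, 41 were higher and 51 lower, and without its replicate 2, 18 and 43.

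The call with the smallest adjusted p was chr5:38664557-38670665, 1 of the 5 lost enhancers without ESC H3K27ac that had the most ESC counts. There 5mC was 62.9% and 58.5% with the label H3K4me1, on 35 and 41 counts, and 19.9% and 24.6% with the label H3K27ac, on 141 and 130 counts. The replicates of the labels did not overlap, the adjusted p from edgeR was 0.000241, and all 8 alternatives that gave a value kept the call. At chr15:76001945-76021758 the difference was 7.18 points over pooled counts (adjusted p from edgeR 0.00405), and the call was lost without replicate 1 labelled H3K27ac (adjusted p 0.0992).

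By CpG counts, 19120 of the 59023 lost enhancers passed the filter on low counts. A region could pass by its counts in the libraries of 1 label alone, so the following counts describe the regions that passed and not lost enhancers as a whole. They include regions that had to differ because they passed through 1 label, so nothing is read from them. By edgeR's quasi-likelihood F-test, 3602 (18.8%) had more counts with the label H3K4me1 and 1045 (5.47%) had fewer, where 17.7% and 16.7% of all 95824 peaks tested passed. The share with more counts was not above that of all peaks in every fit. It was above with DESeq2, at 27.5% against 22.4%, and with library totals only, at 17.9% against 16.6%. Without the filter it was 7.26% against 11.8%, with the replicate block 7.71% against 12.5%, and without replicate 1 labelled H3K27ac 6.87% against 9.42%. Leaving out any other library also put it below the share of all peaks, at 10.5% against 11.7% without replicate 2 labelled H3K27ac, 11.9% against 15.03% without replicate 1 labelled H3K4me1 and 12.2% against 16.2% without its replicate 2. Some regions had counts in all 4 libraries. At chr8:23672581-23681106 the log2 difference was 2.82 (adjusted p from edgeR 0.00289), at chr15:76001945-76021758 it was 1.82 (0.000385) and at chr15:100559283-100564057 it was -2.19 (0.000945). At chr2:180507267-180517000 and chr8:89997112-90000305 neither library labelled H3K4me1 had a listed bin, while those labelled H3K27ac had 77 and 148 counts at the first and 113 and 102 at the second. Both passed the filter by the label H3K27ac alone, so no test is given for them. Both regions had little 5mC after RA, 16.8% and 9.49%, and in XEN cells 6.49 and 17.6% and then 19.5 and 21.6%.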

How the data were processed

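ChIP-BS-seq of R1 cells was used for H3K4me1 and H3K27ac in ESCs, RA-treated and XEN cells. Per the submitters' processing notes and the study's methods, the authors aligned reads to mm9 (Bismark, Bowtie), dropped those whose CpGs disagreed, and deposited methylated and unmethylated CpG counts per 200-bp bin. They deposited peak lists from HOMER with a score per peak, called per mark and state. XEN libraries are named by the sample labels, and libraries of other marks, input and the single-cell tables were not analysed here. From these, counts of bins overlapping a peak were summed, and 5mC per peak needed 30 counts in each library compared (20 in the XEN test). Levels used library totals, and ratios a pseudocount of 1 CPM on bins of at least 4 counts. XEN marks were compared with edgeR 4.0.16 in R 4.3.3 (quasi-likelihood F-test, TMM scaling, filterByExpr for levels, Benjamini-Hochberg adjustment over all peaks tested, threshold 0.05). Methylation was fitted as the mark by methylated-read term on paired methylated and unmethylated counts. Alternatives used DESeq2 1.42.0, Fisher's exact and Cochran-Mantel-Haenszel tests. Python 3.11.15 with pandas 2.3.3 and scipy 1.17.1 did the rest. Both fits were tested on simulated data. The study describes repeats but not whether XEN replicates came from separate cultures, so p-values measure the spread between these libraries, which may be technical. Their counts differed beyond sampling noise. Depth ran from 12147115 to 58803653 CpG counts, and counting error is given by the intervals.

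The regions named were, apart for enhancers with and without ESC H3K27ac, the 5 with the most ESC H3K4me1 counts, the 3 largest 5mC changes up and down at 100 counts or more in both H3K4me1 libraries, the 3 with the highest mean XEN CPM, the pair nearest the threshold, and the 3 windows with the most members. The members and lists were chosen with earlier results of these data known. ESC and RA libraries were compared without a test, since they chose the members and have 1 library each.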

Additional observations from a re-analysis of the deposited data

Results flagged for a closer look

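The difference in pooled 5mC between the marks, H3K4me1 minus H3K27ac on bins with at least 4 counts, had opposite signs in different cell states. Over lost enhancers with ESC H3K27ac it was 2.80 points in ESCs and -4.24 points after RA, a difference between the states of -7.04 points. In XEN cells, by the labels, it was 9.11 and 7.36 points in the 2 replicates, which is 12.5 points above the RA value on average. Over lost enhancers without ESC H3K27ac it was -3.51 points in ESCs, -4.57 points after RA and 9.91 and 8.08 points in XEN cells. There the XEN mean lay 12.5 points above ESCs and 13.6 points above RA. These differences were not tested, since ESCs and differentiated cells had 1 library per mark. With XEN marks read by the file names, the XEN values change sign. Without ESC H3K27ac the difference would then be negative in ESCs, after RA and in XEN cells alike. With ESC H3K27ac it would be positive in ESCs only. Within regions with 30 counts in both marks, the medians over all lost enhancers were -1.30 points in ESCs, 2.08 points after RA and -0.401 and -0.603 points in XEN cells, and the cause of the difference from the pooled values was not tested.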

How the results depend on the processing

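With peaks above the median ESC score only, 17696 enhancers were lost, 10198 with and 7498 without ESC H3K27ac. With ESC H3K27ac, 30114 were lost when RA peaks had to cover 50% of a peak and 29903 when RA peaks above the median score alone were used. The median 5mC change with ESC H3K27ac was 16.8 points at a minimum of 10 counts, 18.7 with bins wholly inside peaks, 19.3 for peaks above the median score and 15.1 per bin. Without it, the change was 13.8 at a minimum of 60 counts, 13.9 with no RA peak within 1000 bp, 16.8 above the median score and 11.1 per bin. The median log2 XEN to ESC ratio with ESC H3K27ac was -2.93 when scaled to counts outside peaks, -2.38 with a pseudocount of 0.1, -1.21 without unlisted peaks and -1.38 with marks by file name. Without ESC H3K27ac it was -2.69, -2.20, -0.93 and -0.96. Leaving out each replicate gave -1.19 to -1.13 and -0.92 to -0.85.

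For XEN 5mC, 66 of 4062 lost enhancers tested were called at a minimum of 10 counts (1.62%, against 22.9% of all peaks), 10 of 215 at 40 (4.65% against 41.001%) and 115 of 1243 by Fisher's exact test (9.25% against 40.2%). Leaving out each library gave 16 to 92, with 22 and 16 without replicates 1 and 2 labelled H3K27ac, and 92 and 61 without those labelled H3K4me1, which is 1.20 to 4.08% of those tested against 21.6 to 29.3% of all peaks. For CpG counts the range was 1837 to 5425, with 1837 and 2665 without replicates 1 and 2 labelled H3K27ac (7.81% and 11.8% against 15.9% and 19.8% of all peaks) and 5425 without replicate 2 labelled H3K4me1 (22.5% against 40.04%). A label left with 1 library was assumed to vary like the other. Replicate numbers did not pair the libraries: the correlation of replicate differences between marks was 0.00634 for levels and -0.000151 for 5mC. With the replicate block, 32 (edgeR) and 97 (Cochran-Mantel-Haenszel) lost enhancers were called for 5mC (2.57% and 7.80% against 30.2% and 39.2% of all peaks) and 1883 for counts (9.85% against 24.1%). At chr1:120966812-120984897 the log2 count difference was 0.30 with all libraries, 1.20 without replicate 1 labelled H3K4me1 and -7.97 without its replicate 2, since the library left had no listed bin. DESeq2 called 6488 (33.9% against 41.4%). The pooled XEN 5mC difference between the labels was 19.3 points on bins with at least 10 counts (18.0 with and 19.9 without ESC H3K27ac), and leaving out each replicate gave 7.93 to 9.76. Of the alternative values of the main results, 30 stayed within the spread or interval of the value, or 1.5 times the count, and 36 did not. Causes were not tested otherwise. Of the lost enhancers, 29.9% had 30 counts in both H3K4me1 libraries, against 91.6% of kept peaks with and 85.1% of those without ESC H3K27ac.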
